A study of Homo sapiens with 15 samples.

Results

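The comparison of HGrC1 cells given SMAD3 plus FOXL2C134W with HGrC1 cells given empty vectors rests on 6 of the 15 libraries of the series, chosen by their labels alone, with 3 replicates per condition lettered A, B and C. The question was what the tumor-associated form of FOXL2, delivered with its partner SMAD3, changes in the granulosa cell transcriptome. HGrC1 is an immortalized, non-luteinized human granulosa cell line, used at a single passage. The Vectors cells received empty plasmids, and the FOXL2C134W cells received plasmids for SMAD3 and for FOXL2 with a tryptophan in place of the cysteine that C134W names. Both were transfected by lipofection for 4 h and then cultured for 24 h without serum, so serum starvation and the lipofection itself were common to both conditions. In the other conditions the cells received SMAD3 plus FOXL2WT, or either FOXL2 form together with SMAD3 and a constitutively active FOXO1. No condition with SMAD3 alone was analysed here, so the effects of SMAD3 and of FOXL2C134W on any gene below cannot be told apart. Expression was driven transiently from plasmids on top of the endogenous genes, in 1 cell line, and the share of cells that took up plasmid was not measured here. The labels do not say that replicates A, B and C were separate cultures, so the p-values measure the spread among these libraries, which may be technical.

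FOXL2 is a forkhead transcription factor that maintains the identity of ovarian granulosa cells, the somatic cells that surround the oocyte and make estradiol. A single recurrent substitution, C134W, is the hallmark of the adult granulosa cell tumor. SMAD3 is the receptor-activated effector of TGF-beta, activin and GDF signals. It is phosphorylated at the receptor, enters the nucleus with SMAD4 and binds DNA weakly by itself, so that partners such as forkhead proteins, AP-1 and ATF factors decide which genes it reaches.

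The 6 libraries held between 20234179 and 25339094 estimated counts, against 14962245 to 25339094 over all 15. A total of 13868 genes passed the filter on low counts and were tested. Levels are given as CPM, a gene's counts relative to the library total after TMM scaling, and differences as log2 fold changes with their standard errors from edgeR. A gene was called a differentially expressed gene (DEG) at a Benjamini-Hochberg adjusted p under 0.05. FOXL2C134W replicate A stood apart from replicates B and C. Among the 704 tested genes with transcripts of 6000 bases or more, its median deviation from the Vectors mean was 0.002 on the log2 scale, against 0.194 in replicate B and 0.160 in replicate C. Among the 2080 genes of 60% GC or more its median deviation was 0.146, against 0.009 and -0.005. Counts for the lists of long transcripts and values of the longest genes that lead the increases are therefore also given without that library.

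**Figure D1:**
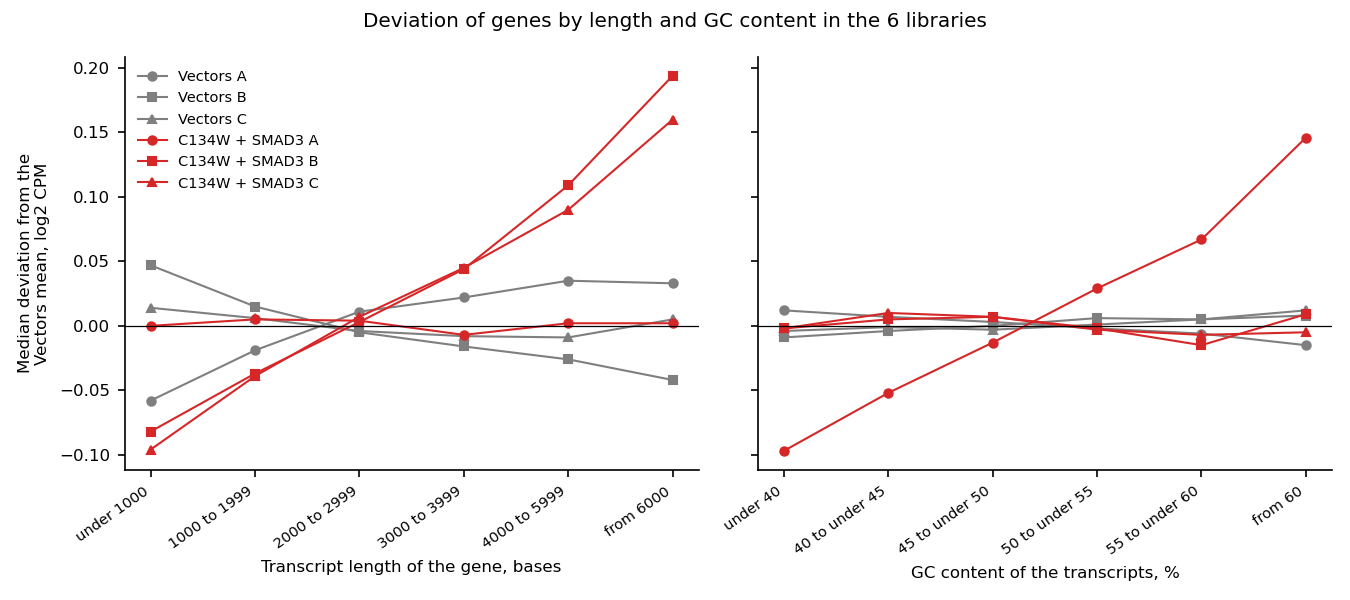
Median difference of each library from the mean of the 3 Vectors libraries (log2 CPM, vertical axis) in classes of transcript length (left) and GC content (right), 1 line per library of Vectors and FOXL2C134W. FOXL2C134W replicates B and C rise with transcript length to 0.194 and 0.160 in the longest class while replicate A stays at 0.002, and replicate A alone rises with GC content, to 0.146.

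The transfected genes were read first. FOXL2 (ENSG00000183770, GRCh38 chr3:138944224-138947137) stood at 8.37, 9.54 and 8.28 CPM in the Vectors libraries A, B and C and at 174.7, 145.5 and 120.8 CPM in FOXL2C134W. Its log2 fold change was 4.08 ± 0.13 (SE, n = 3 per condition, edgeR quasi-likelihood test, adjusted p = 1.9e-13). SMAD3 (ENSG00000166949, chr15:67063763-67195173) stood at 262.8, 240.0 and 245.0 CPM in Vectors and at 884.6, 832.5 and 812.1 CPM in FOXL2C134W, a log2 fold change of 1.76 ± 0.05 (edgeR, adjusted p = 3.2e-14). Neither gene overlapped between the conditions, as the labels require. With the reads weighted by transcript length in DESeq2, the log2 fold change of SMAD3 was 4.15. FOXO1, which was not transfected here, stood at 12.2 to 13.8 CPM in Vectors and 11.6 to 12.4 CPM in FOXL2C134W (log2 fold change -0.14 ± 0.10, adjusted p = 0.44). Reads of the plasmids and of the endogenous genes, and of the mutant and normal FOXL2 alleles, were not separated in the estimated counts. The FOXL2WT libraries carried more of both transcripts, with 560.6 ± 5.89 CPM of FOXL2 and 2768.4 ± 154.2 CPM of SMAD3 (SD, n = 3), so any difference between the 2 FOXL2 forms below cannot be told apart from a difference in the amount of FOXL2 and SMAD3 transcript. Protein levels were not analysed here. From an immunoblot the paper reports that protein of FOXL2WT, FOXL2C134W and FOXO1 was balanced.

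The cells were checked against markers of their label. Of 10 granulosa markers 6 passed the filter, and their summed level was 1919.0 to 1924.2 CPM in Vectors and 2164.6 to 2267.6 CPM in FOXL2C134W, most of it keratin 18 (KRT18). The sum includes the transfected FOXL2, at 8.28 to 9.54 CPM in Vectors and 120.8 to 174.7 CPM in FOXL2C134W. Its rise is therefore not a measure of endogenous granulosa genes alone. GATA4, a transcription factor of gonadal somatic cells, was at 144.0 to 153.8 CPM in Vectors and 141.5 to 150.1 CPM in FOXL2C134W (log2 fold change -0.03, adjusted p = 0.75), and WT1, a marker of early follicles, had a log2 fold change of -0.01 (adjusted p = 0.95). The FSH receptor FSHR had 0 counts in all 6 libraries, and CYP19A1 (aromatase) and INHA (the inhibin alpha subunit) had at most 4 counts in any of them, so these transcripts were at or near the detection limit in both conditions. A count of 0 allows up to 3 counts per library. Of 7 theca markers 3 were tested, and their sum was 220.9 to 231.6 CPM in Vectors and 265.9 to 284.9 CPM in FOXL2C134W. The 9 epithelial markers, 7 of them tested, summed to 4116.6 to 4451.3 and 4338.5 to 5164.2 CPM, the 7 endothelial markers, 6 tested, to 37.7 to 40.6 and 28.2 to 29.9 CPM, and the 8 leukocyte markers, 3 tested, to 105.9 to 119.0 and 91.9 to 99.5 CPM. Most of the leukocyte sum was CD68, at 103.2 to 116.6 CPM in Vectors and 90.5 to 97.7 CPM in FOXL2C134W (log2 fold change -0.25). The endothelial markers that fell were KDR and TEK, the receptors for VEGF and angiopoietin, and the defining leukocyte markers PTPRC and CD3E had at most 5 and 0 counts. The part of other cell types in the results was not tested. In these bulk samples fewer cells expressing a gene and less of its RNA per cell cannot be told apart.

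SMAD3 plus FOXL2C134W changed many genes by a small amount. There were 2041 DEGs (14.7% of the genes tested), of which 1037 were higher (7.48%) and 1004 lower (7.24%) than in Vectors. The median absolute log2 fold change was 0.27 among the higher and 0.26 among the lower DEGs. Past 1.5-fold there were 43 higher (0.310% of the genes tested) and 135 lower DEGs (0.973%), and past 2-fold there were 10 higher (0.0721%) and 45 lower (0.324%), so the larger changes were mostly decreases. Replicates of the 2 conditions did not overlap for 31.8% of all genes tested. The higher and lower DEGs differed in their transcripts: the median length was 3276 bases among the higher, 1911 among the lower and 2110 among all genes tested, and the median GC content was 53.3%, 46.4% and 49.1%. There were 1224 higher and 901 lower DEGs without FOXL2C134W replicate A, 633 and 693 without Vectors replicate B, 691 and 657 without Vectors replicate C, and 667 and 608 without FOXL2C134W replicate B. When the counts were corrected for the lengths of the transcripts in each library and tested with DESeq2, 493 higher and 478 lower DEGs were left, and 830 of the 2041 genes kept their call and direction. Genes named as DEGs in the following paragraphs that were not called with these transcript length offsets were KIF26B, SRRM2, NPIPB5, ANGPTL2, SKI, ACVR1B, ACVRL1, IRS1, KITLG, KDR, ITGA1, PLAT, HSPG2, ARID1A, MARS1, CDKN2B, CTSS, MX1, SLC38A2, WWTR1, MKI67, GLI2 and JAG2.

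**Figure D2:**
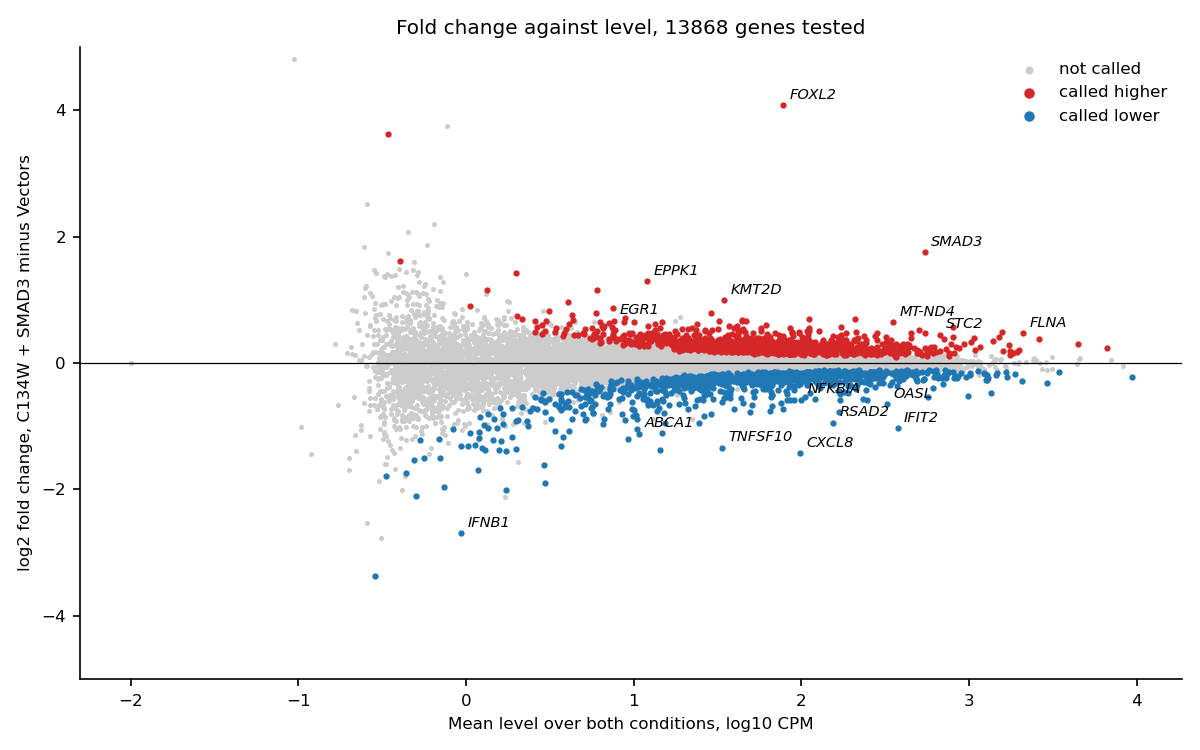
Log2 fold change of FOXL2C134W against Vectors (vertical axis) against mean level (log10 CPM, horizontal axis) for the 13868 genes tested, with higher DEGs in red, lower DEGs in blue and genes not called in grey. Most DEGs lie close to 0, and among genes past 2-fold the blue points outnumber the red ones, 45 to 10. The axis ends at 5 in both directions, and 16 genes, 2 of them DEGs, lie beyond it.

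The 12 lowest log2 fold changes among DEGs with separate replicates and a mean of at least 5 CPM included those of CXCL8 (-1.42), CXCL2 (-1.37), the death ligand TNFSF10 (-1.34), CCL4L2 (-1.20), the cholesterol exporter ABCA1 (-1.12), the transcription factor KLF4 (-1.10), IL1A (-1.04), IFIT2 (-1.03), ANGPTL2 (-0.96), the interferon-induced GTPase GBP4 (-0.94) and RSAD2 (-0.94). CCL4L2 has near-identical copies and its estimate is uncertain. The 12 highest included EPPK1 (1.30), which encodes the cytolinker epiplakin, and several regulators of chromatin and RNA. The histone H3 lysine 4 methyltransferase KMT2D rose by 1.00, the splicing protein SRRM2 by 0.69 and the remodeler EP400 by 0.67. Also among them were ADM2 (0.87), KIF26B (0.79), ZNF469 (0.72), XIST (0.68), EGR1 (0.67) and the 2 members of duplicated families NPIPB5 (1.16) and NBPF14 (0.80), which share reads with near-identical copies. Several of these transcripts are long, and without FOXL2C134W replicate A the log2 fold changes were 1.39 for EPPK1, 1.16 for KMT2D, 0.89 for KIF26B, 0.88 for ZNF469 and 0.81 for EP400. Replicate A is the FOXL2C134W library that did not rise with transcript length. With offsets for length and GC content the values were 0.98 for EPPK1, 0.90 for KMT2D, 0.60 for KIF26B, 0.44 for ZNF469 and 0.49 for EP400.

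The inflammatory cytokines and chemokines had the lowest median change of the 43 gene lists. Chemokines such as CXCL8 recruit neutrophils, and interleukin 1 and interleukin 6 spread the inflammatory signal between cells. Of 28 tested genes of this kind, 20 fell and 0 rose, with a median log2 fold change of -1.05 against 0.00 over all genes tested. CXCL8 (ENSG00000169429, chr4:73740519-73743716) stood at 135.7, 145.5 and 149.1 CPM in Vectors and at 51.6, 51.7 and 57.3 CPM in FOXL2C134W (log2 fold change -1.42 ± 0.07, adjusted p = 1.4e-10). Every FOXL2C134W library lay below every Vectors library by more than the spread within either condition. Separate replicates were part of the rules that named CXCL8. CXCL2, another neutrophil chemokine, went from 20.0 to 21.2 CPM down to 6.92 to 9.81 CPM. CCL2, which attracts monocytes, stood at 102.6, 94.1 and 92.8 CPM in Vectors and 53.5, 52.9 and 68.5 CPM in FOXL2C134W (log2 fold change -0.73 ± 0.09, adjusted p = 2.2e-05). CCL5, a lymphocyte chemokine, fell by 0.84, and CXCL1 and CXCL10 fell by 1.17 and 1.31 from levels of about 5 CPM. Of the interleukins, IL1A was at 13.2, 14.2 and 14.5 CPM in Vectors and 5.98, 5.98 and 8.52 CPM in FOXL2C134W. IL1B fell by 0.90 and IL6 by 0.59. The transmembrane chemokine CX3CL1 had the lowest value of the list (-1.62) at low levels, 3.51 to 5.49 CPM in Vectors. The adhesion molecule ICAM1, by which leukocytes bind, fell by 0.30. Of the 28, 18 fell without FOXL2C134W replicate A, and with offsets for length and GC content 20 fell.

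NF-kappaB is the dimeric factor that switches on many of these cytokines, and it also induces its own inhibitors. Among 23 tested NF-kappaB subunits and feedback inhibitors 10 fell and 0 rose, with a median log2 fold change of -0.14. The members that fell were the inhibitors and regulators NFKBIA, NFKBIZ, BCL3, TNFAIP3, TNIP1, BIRC3, TRAF1 and CYLD and the induced genes TNFAIP2 and TNFAIP8. NFKBIA (ENSG00000100906, chr14:35401079-35404749), which encodes the inhibitor IkappaB-alpha, stood at 116.5, 120.5 and 121.1 CPM in Vectors and at 80.0, 78.8 and 81.2 CPM in FOXL2C134W (log2 fold change -0.58 ± 0.04, adjusted p = 1.3e-08). TNFAIP3, the ubiquitin-editing enzyme A20, went from 88.8 to 95.0 CPM down to 57.7 to 61.8 CPM (log2 fold change -0.64 ± 0.05, adjusted p = 3.1e-07). NFKBIZ fell by 0.78 and the adaptor TRAF1 by 0.57. The number of the 23 that fell was 7 without Vectors replicate A or FOXL2C134W replicate B and 12 with offsets for length and GC content. In DESeq2 with transcript length offsets 7 fell and 1 rose. The DNA-binding subunits were not called: the log2 fold change was 0.10 for RELA (adjusted p = 0.15), 0.04 for NFKB1 (adjusted p = 0.69) and 0.16 for REL (adjusted p = 0.49).

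The proximal promoters of CXCL8 and NFKBIA are shown because these 2 genes are among the DEGs of smallest p and carry NF-kappaB letters close to the start of transcription. They are the 250 bases before the gene start from RefSeq (GRCh38.p14), at chr4:73740319-73740568 on the plus strand and chr14:35404750-35404999 on the minus strand, written in the direction of transcription. Capitals mark matches to the motif GGGNNTTTCC or GGANTTTCC on either strand, the first of them 91 bases before the start of CXCL8 and 242 before that of NFKBIA, which has a second one 81 bases before its start.
CXCL8: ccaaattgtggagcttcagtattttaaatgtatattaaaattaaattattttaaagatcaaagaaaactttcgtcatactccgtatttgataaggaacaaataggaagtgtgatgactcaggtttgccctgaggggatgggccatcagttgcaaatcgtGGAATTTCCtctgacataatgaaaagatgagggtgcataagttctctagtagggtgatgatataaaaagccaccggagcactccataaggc
NFKBIA: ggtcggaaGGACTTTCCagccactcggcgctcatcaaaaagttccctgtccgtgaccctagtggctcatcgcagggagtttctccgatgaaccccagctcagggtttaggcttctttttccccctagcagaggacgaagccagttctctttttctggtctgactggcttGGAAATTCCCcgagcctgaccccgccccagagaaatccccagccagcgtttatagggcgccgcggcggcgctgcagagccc

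In RefSeq promoters of 250 bases the motif was present in 3.25% of all 27305 genes of the promoter table and in 3.91% of the 10794 genes tested that had an entry. It was present in 7.99% of the 788 lower DEGs and 3.23% of the 806 higher DEGs that matched. Of the 21 cytokine and chemokine genes with a promoter entry 12 held it (57.1%). Of these 12, 9 fell, and of the 9 without it 7 fell, so the decrease was seen with and without these letters. Among the NF-kappaB subunits and inhibitors 10 of 20 held the motif, of which 6 fell, and 4 of the 10 without it fell. A match is a run of letters and not a binding site.

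Interferon-stimulated genes, the antiviral effectors induced by type I interferon, were lower or not called. Of 50 tested 30 fell and 0 rose, with a median log2 fold change of -0.20. IFIT2 (ENSG00000119922, chr10:89283694-89309271), which binds viral RNA, stood at 502.1, 486.3 and 525.5 CPM in Vectors and at 218.3, 247.0 and 277.9 CPM in FOXL2C134W (log2 fold change -1.03 ± 0.09, adjusted p = 6.3e-07). RSAD2, the antiviral enzyme viperin, went from 194.0 to 215.8 CPM down to 99.4 to 116.3 CPM. OASL was at 385.5, 391.4 and 405.6 CPM in Vectors and 253.4, 241.9 and 258.9 CPM in FOXL2C134W (log2 fold change -0.65 ± 0.04, adjusted p = 2.1e-08). The conditions were separate for all 3 genes, as the rules that named them required. IFIT1 fell by 0.53, IFIT3 by 0.47 and the ubiquitin ligase HERC5 by 0.58. The decrease was smaller in other classical members: 0.33 for ISG15 and 0.19 for the dynamin-like MX1. Of the 50, 31 fell and 1 rose without FOXL2C134W replicate A, and 21 to 28 fell without any other single library, the fewest without Vectors replicate C (21) and FOXL2C134W replicate B (22). With offsets for length and GC content 39 fell and 1 rose, and in DESeq2 with transcript length offsets 20 fell.

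The promoters of RSAD2 (chr2:6877527-6877776, plus strand) and ISG15 (chr1:1013247-1013496, plus strand) are shown as one strongly and one weakly lowered gene with the same element. Capitals mark the interferon-stimulated response element, searched as GAAANNGAAA on both strands. It begins 145 bases before the start in RSAD2 and 113 bases before it in ISG15, where overlapping matches form 1 run.
RSAD2: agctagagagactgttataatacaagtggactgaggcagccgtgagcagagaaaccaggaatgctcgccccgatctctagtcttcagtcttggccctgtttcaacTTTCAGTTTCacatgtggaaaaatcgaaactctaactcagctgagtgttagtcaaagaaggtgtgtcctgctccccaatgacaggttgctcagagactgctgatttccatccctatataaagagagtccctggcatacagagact
ISG15: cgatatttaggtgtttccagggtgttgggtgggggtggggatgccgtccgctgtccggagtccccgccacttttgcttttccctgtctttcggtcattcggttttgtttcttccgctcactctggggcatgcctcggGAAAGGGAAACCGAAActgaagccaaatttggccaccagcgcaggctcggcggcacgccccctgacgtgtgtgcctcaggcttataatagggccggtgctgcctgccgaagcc

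The element was present in 3.71% of all promoters of this length and in 3.35% of those of the genes tested, in 6.47% of the lower and 3.47% of the higher DEGs. Of 41 interferon-stimulated genes with an entry 25 held it (61.0%), of which 15 fell, and 8 of the 16 without it fell. IFIT2, the member of the list with the lowest value, and OASL had no entry.

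Upstream of these genes, interferon beta and the sensors of foreign nucleic acids showed 8 decreases and 1 increase among 18 tested (median log2 fold change -0.11). IFNB1 itself was rare, with 26, 41 and 41 estimated counts in Vectors and 5, 3 and 9 in FOXL2C134W. Its log2 fold change was -2.70 ± 0.38 (adjusted p = 1.0e-04), and with so few counts its size is poorly fixed. DESeq2 gave no adjusted p for it. STING1, the adaptor of the cytosolic DNA sensor, fell by 0.46, the antiviral zinc finger protein ZC3HAV1 by 0.44 and DHX58, a relative of the RNA sensor RIG-I, by 0.41. MAVS, the mitochondrial adaptor of the RNA sensors, rose by 0.38, or by 0.19 with offsets for length and GC content.

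Antigen presentation by MHC class I, which shows peptides of the cell to cytotoxic T cells, was lower in most of its parts. Of 21 genes 15 fell and 0 rose (median log2 fold change -0.21). The invariant chain B2M stood at 3163.0, 3296.4 and 3278.1 CPM in Vectors and 2491.4, 2636.6 and 2727.2 CPM in FOXL2C134W (log2 fold change -0.31 ± 0.06, adjusted p = 0.0010). Of the heavy chains, HLA-E fell by 0.36 and HLA-B by 0.17. The peptide transporter TAP1 fell by 0.38 and the immunoproteasome subunit PSMB8 by 0.32. HLA genes share reads among themselves, so single members are less certain than the list. The count was 13 of 21 without FOXL2C134W replicate A and 11 without Vectors replicate C or FOXL2C134W replicate B. It was 17 with offsets for length and GC content and 12 in DESeq2 with transcript length offsets.

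The values of 12 genes in single libraries show these decreases beside the increases described next.

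**Figure D3:**
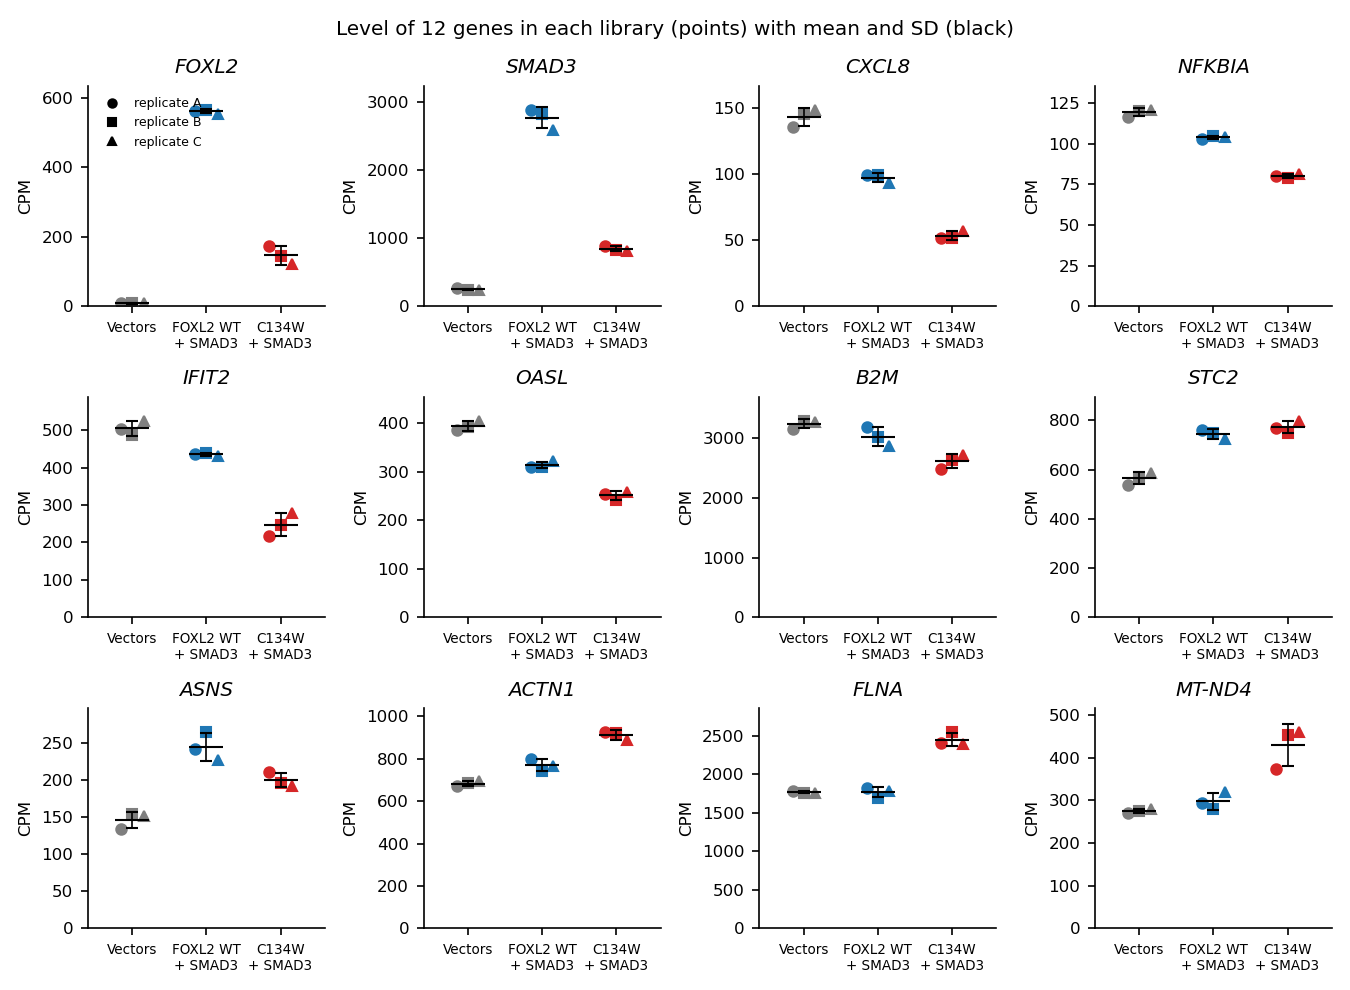
Level in CPM (vertical axes, from 0) of 12 genes in each library of Vectors, FOXL2WT and FOXL2C134W, with a marker for each replicate letter and the mean and SD (n = 3) in black. CXCL8, NFKBIA, IFIT2, OASL and B2M lie lower and FOXL2, SMAD3, STC2, ASNS, ACTN1, FLNA and MT-ND4 higher in all FOXL2C134W libraries than in all Vectors libraries. Separate replicates were part of the rules that named CXCL8, NFKBIA, IFIT2, OASL, STC2, ACTN1 and FLNA.

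Targets of ATF4, the transcription factor of the amino acid and integrated stress response, rose. Of 36 tested 23 rose and 2 fell, with a median log2 fold change of 0.27. The enzymes of serine and asparagine synthesis were among them. PSAT1 stood at 216.5, 249.4 and 240.1 CPM in Vectors and at 343.4, 325.9 and 313.6 CPM in FOXL2C134W (log2 fold change 0.48 ± 0.06, adjusted p = 3.1e-05). ASNS, asparagine synthetase, was at 134.3, 154.1 and 151.3 CPM and at 210.9, 196.4 and 192.2 CPM (log2 fold change 0.45 ± 0.06, adjusted p = 7.8e-05). PHGDH, which opens serine synthesis, rose by 0.35. The groups did not overlap for any of these. The amino acid exchanger SLC7A5 rose by 0.47 and the cystine transporter SLC7A11 by 0.37, which was 0.23 with a length offset alone. The pseudokinase TRIB3, a feedback inhibitor of the pathway, rose by 0.38. ATF4 mRNA rose by 0.14 (adjusted p = 0.022), a call that was lost without Vectors replicate A (0.11) or without FOXL2C134W replicate A (0.12). The 2 members that fell were ATF3, another stress factor (-0.42), and the glutamine transporter SLC38A2 (-0.19). The cell death factor DDIT3 was not called (log2 fold change -0.23, adjusted p = 0.072), but was called without Vectors replicate A (-0.30). In the absence of FOXL2C134W replicate A 18 rose and 2 fell.

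The cytosolic aminoacyl-tRNA synthetases, which charge tRNAs and are in part ATF4 targets, rose as well, 12 of 20 with 0 that fell and a median log2 fold change of 0.19. GARS1 rose by 0.30, MARS1 by 0.28, SARS1 by 0.26 and AARS1 by 0.24. The number of the 20 that rose was 9 without FOXL2C134W replicate B and 8 in DESeq2 with transcript length offsets. With offsets for length and GC content 13 rose and 1 fell. STC2, a secreted glycoprotein of the stress response and one of the 5 higher DEGs of smallest p, stood at 538.2, 569.3 and 586.5 CPM in Vectors and at 769.1, 748.5 and 798.9 CPM in FOXL2C134W (log2 fold change 0.45 ± 0.04, adjusted p = 1.5e-06). The other arms of the stress response did not move the same way. Of 31 endoplasmic reticulum chaperones and unfolded protein response genes 3 rose and 7 fell, with the lectin chaperone CALR lower by 0.27 and the disulfide isomerase PDIA4 by 0.28, and XBP1 was not called (log2 fold change -0.05, adjusted p = 0.42). Of 22 heat shock genes 5 rose and 1 fell. The endoplasmic reticulum genes that rose were 9.68% and the heat shock genes that fell 4.55%, against 7.48% and 7.24% over all genes tested. The heat shock genes that rose numbered 2 without Vectors replicate A and 3 without Vectors replicate B or C or FOXL2C134W replicate A, 8 with offsets for length and GC content and 2 in DESeq2 with transcript length offsets. The endoplasmic reticulum genes that rose numbered 0 without Vectors replicate C and 1 without Vectors replicate A or FOXL2C134W replicate C, and those that fell 4 with transcript length offsets.

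The promoter of ASNS (chr7:97872409-97872658, minus strand) is shown for its composite element. Capitals mark TGATGNAA, the letters that CEBP-ATF dimers read, 68 bases before the start.
ASNS: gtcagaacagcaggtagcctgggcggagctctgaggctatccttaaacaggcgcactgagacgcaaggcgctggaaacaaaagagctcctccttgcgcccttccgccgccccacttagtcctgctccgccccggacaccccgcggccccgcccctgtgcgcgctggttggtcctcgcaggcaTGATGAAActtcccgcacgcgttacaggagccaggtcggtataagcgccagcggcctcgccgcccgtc

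TGATGNAA was present in 3.89% of all promoters, 2.30% of those of the genes tested, 3.47% of those of the higher and 2.03% of those of the lower DEGs. Of 29 ATF4 targets with an entry 6 held it (20.7%), of which 4 rose and 1 fell, and of the 23 without it 14 rose and 1 fell. Of 16 tRNA synthetase genes 3 held it (AARS1, GARS1 and IARS1), and all 3 rose.

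In the TGF-beta system that SMAD3 serves, the shares called besides SMAD3 were no larger than over all genes tested (7.48% higher, 7.24% lower). Among 18 tested ligands 1 rose (5.56%) and 0 fell. This was TGFB2, at 271.1, 271.2 and 266.1 CPM in Vectors and 322.6, 344.3 and 331.9 CPM in FOXL2C134W (log2 fold change 0.31 ± 0.04, adjusted p = 4.1e-05), with no overlap. TGFB1 was not called (log2 fold change 0.10, adjusted p = 0.31). Among 28 receptors, SMADs and their regulators other than SMAD3, the corepressor SKI (0.34) and the ubiquitin ligase SMURF2 (0.23) rose, and the activin receptor ACVR1B (-0.18) and the endothelial-type receptor ACVRL1 (-0.81, at most 2.35 CPM) fell. These were 7.14% higher and 7.14% lower. The 2 decreases were fragile. ACVRL1 was not called without Vectors replicate A (-0.72) or B (-0.74) or without FOXL2C134W replicate A (-0.75) or B (-0.78). ACVR1B was not called without Vectors replicate A (-0.11) or B (-0.18) or without FOXL2C134W replicate A (-0.17), B (-0.16) or C (-0.18). In DESeq2 with transcript length offsets SKI stood at 0.52, not called, and with offsets for length and GC content 3 of the 28 rose and 5 fell.

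Known SMAD3 target genes split in direction. Of 34 tested 6 rose and 8 fell, with a median log2 fold change of -0.02. CCN2, the connective tissue growth factor, stood at 863.9, 945.6 and 971.5 CPM in Vectors and 1292.5, 1213.2 and 1155.5 CPM in FOXL2C134W (log2 fold change 0.40 ± 0.05, adjusted p = 3.5e-05). Thrombospondin 1 (THBS1), which activates latent TGF-beta, rose by 0.38. COL3A1, a fibrillar collagen, went the other way, from 185.6 to 209.3 CPM down to 133.8 to 151.9 CPM (log2 fold change -0.44 ± 0.07, adjusted p = 0.00024). The AP-1 subunit JUNB fell by 0.42 and the cell cycle inhibitors CDKN2B and CDKN1A by 0.29 and 0.27. SMAD7, the inhibitory SMAD and a target often used as a readout of SMAD3, was not called, with a log2 fold change of 0.02 (adjusted p = 0.88). The short SMAD motif CAGAC was present in 44.7% of the promoters of the higher, 47.1% of the lower and 44.1% of all genes tested, and the forkhead motif GTAAACA in 3.23%, 3.43% and 3.01%.

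Of 17 tested granulosa identity genes, the transfected FOXL2 included, 3 rose and 1 fell. These were 17.6% and 5.88%, against 7.48% and 7.24% over all genes tested. IRS1, an insulin receptor substrate, rose by 0.35, and was not called with offsets for length and GC content (0.21). KRT18 rose by 0.12 (adjusted p = 0.026), a call that held in the absence of FOXL2C134W replicate B but not of replicate A (0.11) or C (0.12) or of Vectors replicate A, B or C (0.12 each). KITLG, the ligand by which granulosa cells signal to the oocyte, fell by 0.29. Of 20 steroidogenic genes 5 fell and 0 rose. HSD17B11, a dehydrogenase of androgens, fell by 0.31 and kept its call without any 1 library. The count was 1 without Vectors replicate A, 2 without Vectors replicate B or FOXL2C134W replicate A, 3 without Vectors replicate C or FOXL2C134W replicate B and 4 without FOXL2C134W replicate C, and 1 in DESeq2 with transcript length offsets.

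Genes of the actin cytoskeleton rose together. Of 40 crosslinkers, myosin II subunits and adhesion linkers 27 rose and 1, the calponin CNN3 (-0.16), fell, with a median log2 fold change of 0.26. ACTN1, the crosslinker alpha-actinin, stood at 670.6, 684.4 and 692.9 CPM in Vectors and at 928.0, 922.4 and 887.2 CPM in FOXL2C134W (log2 fold change 0.42 ± 0.04, adjusted p = 8.1e-07). FLNA, filamin A, was at 1782.2, 1757.5 and 1755.2 CPM and at 2408.1, 2553.3 and 2389.7 CPM (log2 fold change 0.47 ± 0.05, adjusted p = 2.2e-06). The conditions did not overlap for either gene, as the rule that named them required. The myosin heavy chain MYH9 rose by 0.50, the adhesion proteins zyxin (ZYX), tensin 1 (TNS1) and LPP by 0.43, 0.49 and 0.56, the cytolinker plectin (PLEC) by 0.52, and the actins ACTB and ACTG1 by 0.24 and 0.31. The size of the PLEC change depended on the processing, with a log2 fold change of 0.25 (adjusted p = 0.00032) with offsets for length and GC content. With these offsets FLNA was at 0.36, MYH9 at 0.38, TNS1 at 0.36, LPP at 0.41, ZYX at 0.39 and ACTN1 at 0.38, all still called, and 27 of the 40 rose. Without FOXL2C134W replicate A 31 rose, and PLEC was then at 0.59. The number that rose was 23 without Vectors replicate B or FOXL2C134W replicate B or C. In DESeq2 with transcript length offsets 20 rose and 2 fell.

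Targets of SRF and YAP, the factors that read actin tension, rose in 16 of 25 cases and fell in 1, WWTR1 (-0.19), which encodes the YAP paralog TAZ and was not called without Vectors replicate A (-0.17) or FOXL2C134W replicate A (-0.14). The matricellular CCN1 rose by 0.36 and the muscle ankyrin repeat protein ANKRD1 by 0.38. The number of the 25 that rose was 13 without FOXL2C134W replicate B and 15 with offsets for length and GC content. It was 12 in DESeq2 with transcript length offsets. Tissue factor (F3), the initiator of coagulation, stood at 446.9, 453.2 and 474.1 CPM in Vectors and 627.2, 627.1 and 648.2 CPM in FOXL2C134W (log2 fold change 0.47 ± 0.04, adjusted p = 2.0e-06). The promoter of FLNA (chrX:154374635-154374884, minus strand) is shown with the CArG box, the element that SRF binds, in capitals. It begins 94 bases before the start.
FLNA: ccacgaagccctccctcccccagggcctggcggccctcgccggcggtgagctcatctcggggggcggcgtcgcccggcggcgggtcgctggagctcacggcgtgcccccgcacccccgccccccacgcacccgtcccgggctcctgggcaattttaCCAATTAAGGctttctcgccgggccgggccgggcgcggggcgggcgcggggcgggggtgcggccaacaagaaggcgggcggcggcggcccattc

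A CArG box was found in 1.44% of all promoters, 1.49% of those of the genes tested, 2.61% of those of the higher and 1.52% of those of the lower DEGs. Of the 34 actin genes with an entry 6 held one, FLNA, ACTN1, ACTG1, LPP, CNN2 and TPM4, and all 6 rose. Of the 28 without one 15 rose and 1 fell.

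Part of the receptors that hold cells to the matrix were lower. Of 14 integrins 5 fell and 0 rose (median log2 fold change -0.17), among them the collagen receptor subunit ITGA1 (-0.36) and the fibronectin receptor subunit ITGA5 (-0.22). The integrins that fell numbered 2 without Vectors replicate A and 3 without Vectors replicate C or FOXL2C134W replicate A. They numbered 8 with offsets for length and GC content and 3 in DESeq2 with transcript length offsets. Of 11 cell surface proteoglycans and their partners 5 fell, or 3 without Vectors replicate A or B or FOXL2C134W replicate B or C and 2 with transcript length offsets. SDC4, a syndecan of focal adhesions, was at 289.1, 279.5 and 270.7 CPM in Vectors and 202.2, 197.9 and 224.0 CPM in FOXL2C134W (log2 fold change -0.43 ± 0.05, adjusted p = 7.2e-06). Of 29 matrix proteases and inhibitors 9 fell and 0 rose (5 fell with transcript length offsets), with the plasminogen activators PLAT and PLAU lower by 0.66 and 0.48 and the protease-activated receptor F2RL1 lower by 0.38. Of 22 collagens 2 rose (9.09%) and 3 fell (13.6%), against 7.48% and 7.24% over all genes tested. Of 30 basement membrane and matrix glycoproteins 4 rose (13.3%) and 5 fell (16.7%). The balance in both lists depended on the processing. With offsets for length and GC content 1 collagen rose and 7 fell, and 3 glycoproteins rose and 11 fell, while with transcript length offsets 2 glycoproteins rose and 1 fell. Of the collagens 1 fell without Vectors replicate A, 4 rose without FOXL2C134W replicate A, and 1 rose without Vectors replicate B or C or FOXL2C134W replicate B or C. Of the glycoproteins 1 rose and 3 fell without FOXL2C134W replicate B, and 2 rose and 3 fell without Vectors replicate B. SPARC, a collagen-binding matricellular protein, fell by 0.28. COL4A2 and HSPG2 (perlecan) rose by 0.20 and 0.37, but neither was called with offsets for length and GC content, where the log2 fold changes were 0.08 (adjusted p = 0.082) and 0.15 (adjusted p = 0.14). HSPG2 also lost its call without Vectors replicate B (0.32) or C (0.37) or FOXL2C134W replicate B (0.28), and stood at 0.47 without FOXL2C134W replicate A. FN1 (0.02, adjusted p = 0.89) and COL5A1 (0.14, adjusted p = 0.16) were not called.

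Some chromatin regulators rose, and their number moved with transcript length and with single libraries. Of 41 histone methyltransferases and acetyltransferases 17 rose and 0 fell (median log2 fold change 0.18), and of 40 SWI/SNF, CHD, ISWI and INO80 remodelers 8 rose and 0 fell (median 0.12). KMT2D (ENSG00000167548, chr12:49018975-49060794) stood at 25.0, 21.9 and 22.7 CPM in Vectors and at 36.1, 56.2 and 46.7 CPM in FOXL2C134W, with the lowest of the latter in replicate A (log2 fold change 1.00 ± 0.13, adjusted p = 5.8e-05). EP400, a subunit of an acetyltransferase and remodeling complex, was at 26.9, 24.1 and 24.0 CPM and at 31.9, 45.0 and 42.5 CPM. SMARCA4, the ATPase of SWI/SNF, was at 84.5, 76.2 and 80.2 CPM and at 105.9, 115.3 and 118.7 CPM (log2 fold change 0.50 ± 0.06, adjusted p = 1.7e-05). Replicate A was the lowest of the FOXL2C134W libraries for all 3 genes and still lay above every Vectors library. The rule that named KMT2D and EP400 required this of them. ARID1A, a SWI/SNF subunit, rose by 0.48, and the acetyltransferase CREBBP by 0.49 (0.86 with transcript length offsets in DESeq2), while BAZ2A was not called (log2 fold change 0.12, adjusted p = 0.18), though it was without FOXL2C134W replicate A (0.18) and with transcript length offsets (0.35).

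These 2 lists hold long transcripts, with a median of 4434 and 4359 bases. Over all genes the share of higher DEGs grew with length, from 1.77% below 1000 bases to 21.9% at 6000 bases or more, and offsets for length and GC content narrowed this to 5.48% and 14.9%. With these offsets 14 of the 41 methyltransferases and acetyltransferases rose and 1 fell, and 7 of the 40 remodelers rose and 1 fell. The counts were 23 and 18 higher and 0 lower without FOXL2C134W replicate A, 7 and 4 without Vectors replicate B or without FOXL2C134W replicate B, and 7 and 5 without Vectors replicate C or without FOXL2C134W replicate C. In DESeq2 with transcript length offsets 9 of the 41 and 4 of the 40 rose. Whether the increase in chromatin genes is separate from the increase in long transcripts was not tested.

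Transcripts of the mitochondrial genome rose. Of 12 tested 11 rose and 0 fell (median log2 fold change 0.50). MT-ND4, a subunit of respiratory complex I, stood at 269.8, 274.7 and 278.6 CPM in Vectors and at 372.3, 453.1 and 460.8 CPM in FOXL2C134W (log2 fold change 0.64 ± 0.08, adjusted p = 3.6e-05). MT-ND2 rose by 0.57, MT-ND5 by 0.51 and MT-CO1, the catalytic subunit of cytochrome oxidase, by 0.30. Replicate A had the smallest rise here too: the median deviation of the list from the Vectors mean was 0.271 in replicate A, 0.535 in B and 0.629 in C. The nuclear partners of these subunits stayed behind, with 1 higher and 2 lower among 75 genes of oxidative phosphorylation (median -0.08). That count was 0 in both directions without Vectors replicate B or C or FOXL2C134W replicate B or C, and 1 higher and 3 lower without replicate A of either condition. Cytosolic ribosomal proteins gave 0 calls among 75 in edgeR and 0 in DESeq2, with 2 at an unadjusted p under 0.05 (median log2 fold change -0.02). In edgeR with offsets for length and GC content 9 of these ribosomal protein genes rose and 1 fell.

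Cholesterol, lysosome and cell cycle genes were lower in part. Of 28 genes of cholesterol synthesis and uptake 13 fell and 0 rose (6 fell in DESeq2 with transcript length offsets), among them the sterol sensor INSIG1 (-0.55) and the epoxidase SQLE (-0.26). ABCA1, which exports cholesterol from the cell, stood at 13.8, 14.7 and 15.4 CPM in Vectors and 5.74, 6.94 and 7.60 CPM in FOXL2C134W (log2 fold change -1.12 ± 0.11, adjusted p = 4.7e-06). Of 41 lysosomal genes 16 fell and 0 rose (10 fell with transcript length offsets), including the acid lipase LIPA (-0.33) and the protease CTSS (-0.34). Of 54 mitotic genes 15 fell and 1, MKI67, rose. CDK1 fell by 0.25 and CCNB2 by 0.24, and TOP2A was not called (log2 fold change -0.10, adjusted p = 0.43). Of 15 D cyclins, CDKs and CDK inhibitors 7 fell and 0 rose, with 5 of them inhibitors, CDKN2D (-0.52), CDKN2C (-0.35), CDKN2B, CDKN1A and CDKN1B, and the others CCND3 and CDK4. With transcript length offsets 4 of the 15 fell and 1 rose. Of 47 replication genes 2 rose (4.26%) and 5 fell (10.6%), against 7.48% and 7.24% over all genes tested. These replication counts were 1 and 1 without Vectors replicate C and 1 and 2 without Vectors replicate B or FOXL2C134W replicate B. They were 2 and 3 without FOXL2C134W replicate C, and 0 and 2 with transcript length offsets. The mitotic genes that fell numbered 7 without Vectors replicate A or B, 6 without FOXL2C134W replicate C and 10 without FOXL2C134W replicate A or B, and 8 with transcript length offsets. MKI67 stood at 0.67, and at 0.87 without FOXL2C134W replicate A.

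Of 30 p53 targets 8 fell (26.7%) and 3 rose (10.0%), against 7.24% and 7.48% over all genes tested. Without Vectors replicate A or B or FOXL2C134W replicate B 5 fell. The p53 targets that rose numbered 0 without Vectors replicate A and 1 without Vectors replicate B or C or FOXL2C134W replicate B, and with transcript length offsets 0 rose and 5 fell. PMAIP1, the proapoptotic BH3 protein NOXA, was one of the 5 lower DEGs of smallest p, at 271.7, 281.4 and 285.8 CPM in Vectors and 185.7, 188.2 and 194.3 CPM in FOXL2C134W (log2 fold change -0.56 ± 0.04, adjusted p = 5.1e-08). The cyclins CCNG2 and CCNG1 fell by 0.67 and 0.35. Of 18 BCL2 family genes 3 fell and 0 rose (5 fell with offsets for length and GC content). Among 28 immediate early genes 4 rose and 7 fell, against 3 and 4 without FOXL2C134W replicate B and 6 and 6 without FOXL2C134W replicate C. KLF4 stood at 19.4, 20.3 and 20.2 CPM in Vectors and 9.46, 8.52 and 9.91 CPM in FOXL2C134W. EGR1, a growth factor response factor, went the other way, from 5.64 to 6.08 CPM up to 8.90 to 10.1 CPM, and MYC rose by 0.34. Among receptors and developmental signals, 5 of 28 receptor tyrosine kinases rose (17.9%) and 3 fell (10.7%), against 7.48% and 7.24% over all genes tested. This balance turned with offsets for length and GC content, where 2 rose and 6 fell, and 3 rose without Vectors replicate A or B and 2 without FOXL2C134W replicate B. With transcript length offsets 2 rose and 2 fell. Of 26 Notch and Hedgehog genes 4 rose and 0 fell, including the receptor NOTCH1 (0.53, or 0.33 with offsets for length and GC content and 0.63 without FOXL2C134W replicate A), the effector GLI2 (0.55) and the ligand JAG2 (0.68). With offsets for length and GC content 4 of the 26 rose and 2 fell, and in DESeq2 with transcript length offsets 1 rose and 1 fell. JAG2 stood there at -0.08 and was not called.

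**Figure D4:**
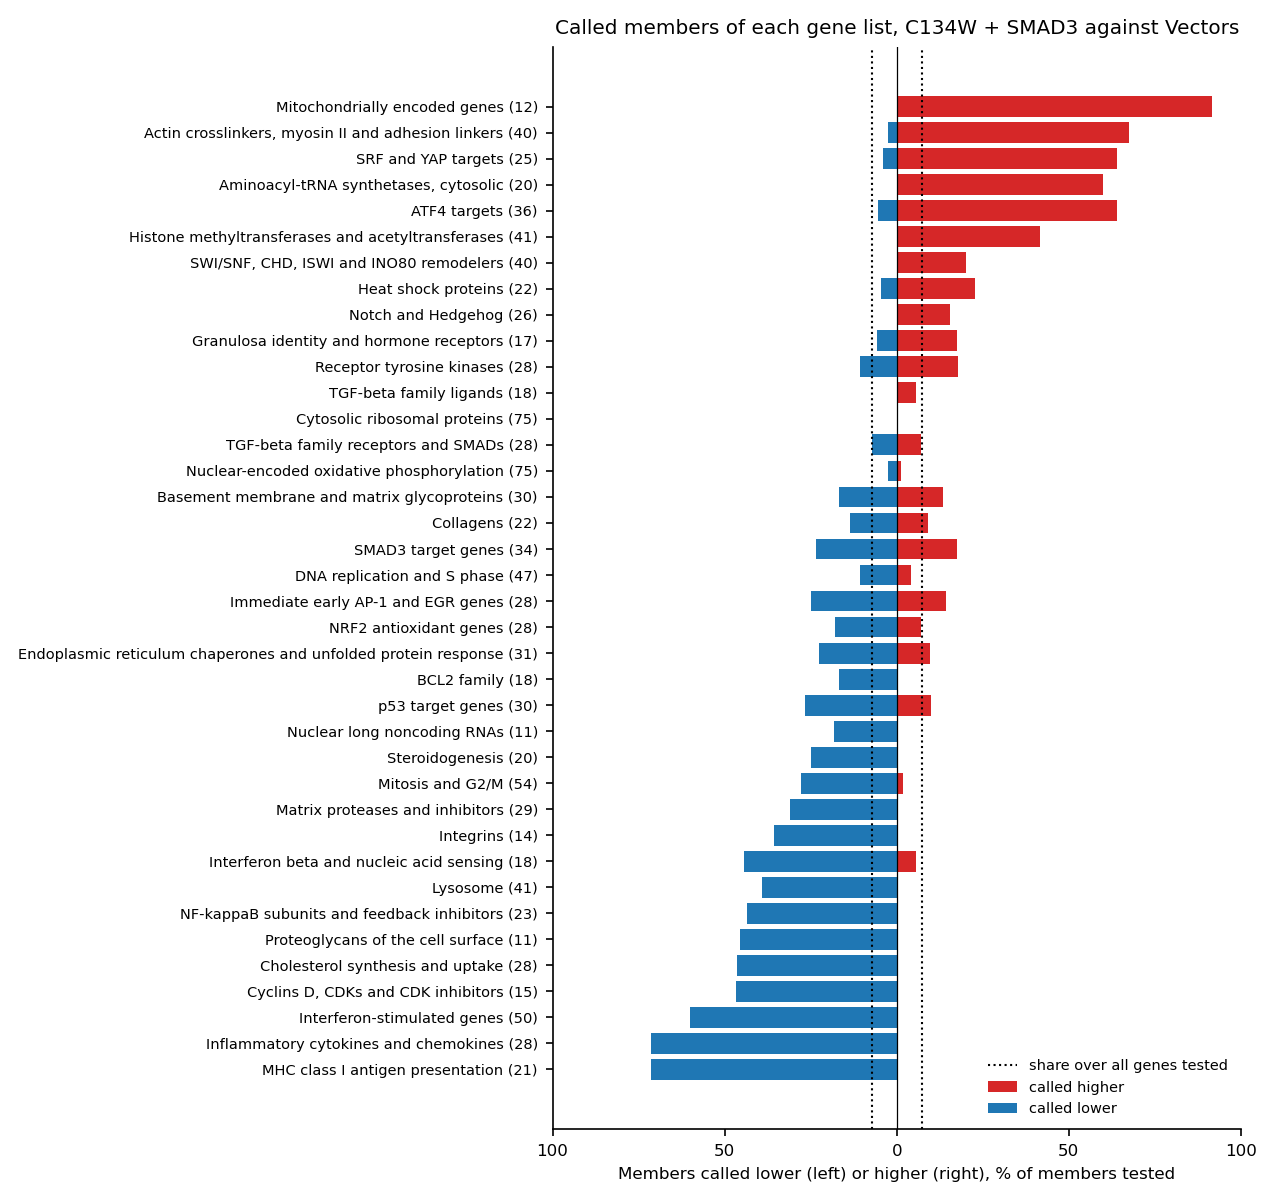
Percent of the tested members of each gene list with at least 10 of them that were lower (blue, to the left) or higher (red, to the right) DEGs of FOXL2C134W against Vectors, with dotted lines at the shares over all genes tested, 7.24% and 7.48%. Cytokines, MHC class I and interferon-stimulated genes reach furthest to the left, and mitochondrially encoded genes, actin linkers, and SRF and YAP targets (64.0%) furthest to the right, just ahead of ATF4 targets (63.9%).

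SMAD3 plus FOXL2WT shares the Vectors libraries with this comparison, and its own values are set beside those of FOXL2C134W for the same lists. FOXL2WT gave 842 DEGs against Vectors (6.07% of the genes tested), 341 higher (2.46%) and 501 lower (3.61%), with 305 in all without Vectors replicate A, 561 without Vectors replicate C and 418 and 345 without FOXL2WT replicate A and B. The direct test of FOXL2C134W against FOXL2WT gave 1560 DEGs (11.2%), 989 higher (7.13%) and 571 lower (4.12%) in FOXL2C134W, with 772 in all without FOXL2WT replicate B and 782 and 866 without FOXL2C134W replicate B and C. For the cytokines the median log2 fold change against Vectors was -0.52 in FOXL2WT and -1.05 in FOXL2C134W, and 8 of the 28 were lower in FOXL2C134W in the direct test. CXCL8 was at 97.5 ± 3.46 CPM (SD, n = 3) in FOXL2WT, between Vectors and FOXL2C134W, and its difference between the forms was itself called (log2 fold change -0.86, adjusted p = 5.5e-07). IFIT2 in FOXL2WT was at 435.6 ± 4.50 CPM and was not called against Vectors (log2 fold change -0.21, adjusted p = 0.16), while its difference between the forms was -0.81 (adjusted p = 1.5e-05). Of the interferon-stimulated genes 10 of 50 fell in FOXL2WT and 19 were lower in FOXL2C134W than in FOXL2WT.

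The ATF4 targets went further in FOXL2WT. Of the 36, 31 rose in FOXL2WT and 0 fell (median log2 fold change 0.43), and 19 were lower in FOXL2C134W than in FOXL2WT in the direct test. ASNS, for example, stood at a log2 fold change of 0.74 against Vectors in FOXL2WT and 0.45 in FOXL2C134W, and the difference between the forms was -0.29 (adjusted p = 0.0045). STC2 did not separate the forms (log2 fold change 0.05, adjusted p = 0.47). Actin genes, in contrast, were higher in FOXL2C134W than in FOXL2WT for 23 of 40 and lower for 2. FLNA was at 1770.0 ± 65.5 CPM in FOXL2WT, level with Vectors (log2 fold change 0.00, adjusted p = 0.97), and 0.47 higher in FOXL2C134W than in FOXL2WT (adjusted p = 6.4e-06). CCN2 was higher than Vectors in both forms (0.47 and 0.40) and was not called between them (-0.07, adjusted p = 0.39). Mitochondrially encoded genes were called in 1 of 12 cases in FOXL2WT, and 9 of 12 were higher in FOXL2C134W than in FOXL2WT. For histone methyltransferases and acetyltransferases the direct test called 22 of 41 higher in FOXL2C134W, and FOXL2WT against Vectors gave 0 higher and 1 lower. Among genes with transcripts of 6000 bases or more the median deviation from the Vectors mean was -0.050, -0.045 and -0.093 in the FOXL2WT libraries. List counts of the direct test were not made with length or GC offsets or without single libraries. The part of transcript length in them was not tested.

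**Figure D5:**
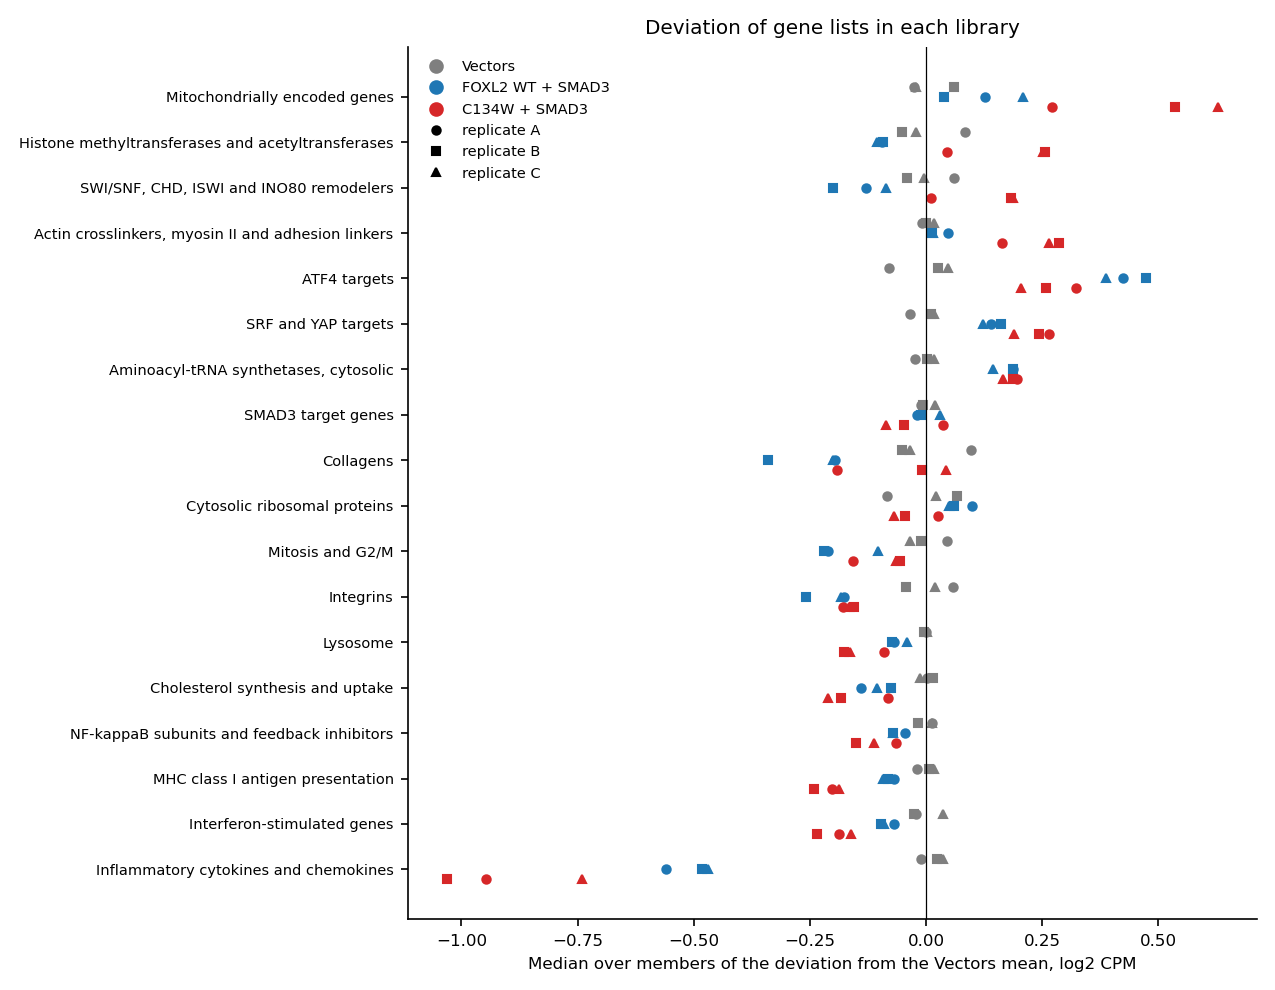
Median deviation of the members of 18 gene lists from the mean of the Vectors libraries (log2 CPM, horizontal axis) in each library of Vectors, FOXL2WT and FOXL2C134W. The cytokine list lies at -0.947, -1.031 and -0.741 in the FOXL2C134W libraries and at -0.559, -0.483 and -0.470 in FOXL2WT, and the ATF4 list lies at 0.205 to 0.323 in FOXL2C134W and at 0.388 to 0.474 in FOXL2WT.

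Adding active FOXO1 to SMAD3 plus FOXL2C134W moved few genes, but several of the increases described above were among them. That comparison, which shares the FOXL2C134W libraries, gave 99 DEGs (0.714% of the genes tested), 1 higher (0.00721%), which was FOXO1 itself (log2 fold change 1.85, adjusted p = 5.8e-10), and 98 lower (0.707%). The SMAD3 transcript was lower by 1.11 with FOXO1 (adjusted p = 8.1e-11) and FOXL2 was not called (0.05, adjusted p = 0.92). The effects of FOXO1 and of less SMAD3 transcript on any gene in this comparison therefore cannot be told apart. Among the mitochondrially encoded genes 7 of 12 were lower with FOXO1, among them MT-ND4 (-0.51, adjusted p = 0.010), and among the actin genes 5 of 40 were. So were 4 of 41 histone methyltransferases and acetyltransferases, 3 of 40 remodelers, 3 of 22 collagens and 3 of 26 Notch and Hedgehog genes. From the 12 highest DEGs, NPIPB5 (-0.94), KMT2D (-0.66), ZNF469 (-0.64), SRRM2 (-0.52) and EP400 (-0.45) were called lower. EPPK1 (-0.46), KIF26B (-0.35), XIST (-0.57), NBPF14 (-0.59), ADM2 (-0.31) and EGR1 (-0.38) were not called. Of the 28 cytokines 0 were called by edgeR and 0 by DESeq2, with 4 at an unadjusted p under 0.05, and of the 50 interferon-stimulated genes 0 were called by either tool, with 8 at an unadjusted p under 0.05. The number of DEGs in this comparison depended on single libraries. It was 355, 5 and 5 without FOXL2C134W replicate A, B and C, and 11, 231 and 5 without replicate A, B and C of the FOXO1 condition.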

How the data were processed

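RNA of HGrC1 cells was sequenced from 15 libraries, 3 for each of 5 conditions, assigned from their labels. The authors estimated transcript abundance with Salmon 1.1.0 on hg38 from stranded 75-bp single-end reads, and the deposited gene table holds estimated counts as whole numbers for 37787 genes, without normalization. The deposited TPM values of the transcript tables, scaled by Salmon, served to weight transcript lengths and GC content and to choose the Ensembl entry of each gene symbol. The 6 libraries compared held 20234179 to 25339094 estimated counts, and the spread between replicates, which exceeded counting noise, set the precision. No condition had a column left unmapped (0 columns).

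Counts of all 15 libraries were fitted together in edgeR 4.0.16 (R 4.3.3) after filterByExpr (13868 genes kept) and TMM scaling. Conditions were compared with the two-sided quasi-likelihood test and Benjamini-Hochberg adjustment, with DEGs called under 0.05. DESeq2 1.42.0, other scalings and filters, a fit restricted to the conditions compared, the replicate letter as a block, lowess offsets (span 0.3) for gene length and GC content, and leaving out each library were the alternatives. Scripts were tested on simulated data. Transcript lengths came from the deposited transcript tables. GC content and coordinates came from GENCODE 44 (GRCh38), which held 98.4% of the transcripts (the authors' release is not given in the sources used here). Promoters were taken from RefSeq (GRCh38.p14) and matched by symbol.

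Members and gene lists were chosen with earlier results of these data known. The genes named were the transfected genes, the 12 highest and 12 lowest DEGs and the 5 of smallest p in each direction (separate replicates, mean of at least 5 CPM), up to 4 DEGs per list by size (mean of at least 1 CPM), and genes the study names. The following were named after their values were seen: CCL2, CCL5, IL6, IL1B, CXCL1, CXCL10, ICAM1, ISG15, MX1, IFIT1, IFIT3, HLA-B, BCL3, TNIP1, BIRC3, CYLD, TNFAIP2, TNFAIP8, RELA, NFKB1, REL, TRIB3, DDIT3, SLC38A2, PHGDH, ACTB, ACTG1, CNN3, SMAD7, SPARC, CDKN1B, CCND3, CDK4, SQLE, MYC, MT-CO1, MT-ND5, GATA4, WT1, FN1, TOP2A, WWTR1 and TNS1. Some genes that these rules select are not reported here.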

Additional observations from a re-analysis of the deposited data

Results flagged for a closer look

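For 6 of the genes named the effect against Vectors was called in opposite directions in FOXL2C134W and in FOXL2WT, and the difference between the forms, tested directly in edgeR, was itself called. These genes are listed by the log2 fold change of FOXL2C134W against FOXL2WT. The basement membrane genes HSPG2 and COL4A2 differed by 0.89 (adjusted p = 2.5e-05) and 0.43 (adjusted p = 2.3e-05), with -0.52 and -0.23 in FOXL2WT. The myosin heavy chain MYH9 differed by 0.70 (adjusted p = 5.5e-07) and RRBP1, a ribosome-binding protein of the endoplasmic reticulum, by 0.86 (adjusted p = 1.6e-05). RRBP1 was at 0.37 against Vectors in FOXL2C134W and lost that call without Vectors replicate C (0.33) or FOXL2C134W replicate C (0.31). The proliferation marker MKI67 differed by 1.57 (adjusted p = 1.3e-05), with 40.8, 32.6 and 29.6 CPM in Vectors and 39.9, 63.9 and 60.6 CPM in FOXL2C134W, so that its replicates overlapped. The stress factor ATF3 went the other way, with a difference of -0.95 (adjusted p = 5.8e-07), at -0.42 against Vectors in FOXL2C134W and 0.52 in FOXL2WT. The 2 contrasts share the Vectors libraries, and the forms also differed in the level of FOXL2 and SMAD3 transcript, whose part was not tested. HSPG2, COL4A2 and MYH9 have long transcripts (10224, 5528 and 6130 bases). At 6000 bases or more, median deviations from the Vectors mean were 0.002, 0.194 and 0.160 in FOXL2C134W and -0.050, -0.045 and -0.093 in FOXL2WT. With offsets for length and GC content, HSPG2 (0.15) and COL4A2 (0.08) were not called in FOXL2C134W against Vectors, while MYH9 (0.38), RRBP1 (0.30), MKI67 (0.50) and ATF3 (-0.41) were. The part of transcript length was not tested.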

How the results depend on the processing

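Limits: 3 libraries per condition, 1 cell line, no SMAD3-only condition, and 1 library that differs from its replicates in long and GC-rich genes. The 2041 DEGs against Vectors (1037 higher, 1004 lower) stayed within 1.5 times of that count in every alternative that kept all libraries except DESeq2 with transcript length offsets, which gave 971 (493 higher, 478 lower). In that alternative 48 of the 2041 genes had the other sign. Leaving out 1 library gave 1275 to 2125 DEGs, 633 to 1224 higher, 608 to 901 lower and 139 to 212 past 1.5-fold. The 178 past 1.5-fold became 274 with every gene of at least 1 count in any library. The letters did not pair the libraries, since the correlations of the deviations of same-lettered libraries were -0.164, -0.0638 and -0.0971. The replicate block gave 1994 DEGs, 1910 of them shared in the same direction, and 2207 together with the length offset.

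FOXL2C134W against FOXL2WT had 1560 DEGs, 764 with transcript length offsets and 772 to 2120 without 1 library. FOXL2WT against Vectors had 842, and 496 with transcript length offsets, 1345 with at least 1 count in any library, 1690 with only the groups compared, 1522 with both offsets and 305 to 662 without 1 library. The FOXO1 comparison had 99, and 223 in DESeq2, 61 with transcript length offsets, 463 with at least 1 count in any library, 170 with at least 10 counts in every library, 32 with only the groups compared, 42 with the GC offset and 5 to 355 without 1 library. The cause of these differences was not tested.

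Of the genes named, the sign turned in DESeq2 with transcript length offsets for FOXO1 (0.93), JAG2 (-0.08), POLQ (-0.09), WT1 (0.11) and TOP2A (0.01). It turned with both offsets for COL5A1 (-0.02), POLQ (-0.01), SMAD7 (-0.01), WT1 (0.03) and FN1 (-0.08), and with the length offset, alone or with the block, for POLQ (-0.04), WT1 (0.03) and FN1 (-0.07). Without 1 library SMAD7 ran from -0.03 to 0.08, GATA4 from -0.05 to 0.00, WT1 from -0.05 to 0.03 and FN1 from -0.03 to 0.08. Except for JAG2 these genes were not called against Vectors in the fit of all 15 libraries. In the alternatives, COL5A1 was called with at least 1 count in any library (0.15) and TOP2A with the block and length offset (-0.16).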

Other observations

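Several further gene groups were read in the same 6 libraries. NEAT1, a noncoding RNA that builds nuclear paraspeckles, stood at 50.1, 46.7 and 50.5 CPM in Vectors and 25.3, 29.0 and 34.7 CPM in FOXL2C134W (log2 fold change -0.73 ± 0.09, edgeR adjusted p = 3.5e-05), one of 2 lower DEGs among 11 nuclear noncoding RNAs. The other, the imprinted H19 (-0.56), was not called without Vectors replicate A (-0.50) or C (-0.46) or FOXL2C134W replicate A (-0.49) or B (-0.53). Of 28 NRF2 antioxidant genes 2 rose (7.14%) and 5 fell (17.9%), against 7.48% and 7.24% over all genes tested, with the cystine transporter SLC7A11 at 0.37. The number that fell was 3 without Vectors replicate A or C or FOXL2C134W replicate A and 1 without Vectors replicate B. It was 2 without FOXL2C134W replicate B and 2 with transcript length offsets in DESeq2. Of 7 metallothioneins 0 were called by edgeR and 0 by DESeq2, with 1 at an unadjusted p under 0.05 (median log2 fold change -0.15). Among epithelial keratins and claudins, KRT7 rose by 0.41, while the tight junction protein CLDN4 fell from 16.9 to 17.8 CPM to 9.26 to 11.3 CPM (log2 fold change -0.76 ± 0.10, adjusted p = 3.4e-05). KRT19 fell by 0.17 (edgeR adjusted p = 0.036), a call kept in 1 of the 6 fits without 1 library. KRT8 was not called (0.01, adjusted p = 0.93). NR2F2, the orphan receptor COUP-TFII of ovarian stroma, rose from 211.7 to 220.7 CPM to 259.0 to 277.0 CPM (log2 fold change 0.32 ± 0.05, adjusted p = 0.00013). The repair polymerase gene POLQ was not called (log2 fold change 0.07, adjusted p = 0.65).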
